A study of Mus musculus with 18 samples.

Results

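The Hox genes encode homeodomain transcription factors and lie in 4 clusters in the mouse genome. They were chosen here by symbol, as the protein-coding genes of the Hoxa, Hoxb, Hoxc and Hoxd clusters, which gave 38 genes of 35727 gene IDs in the count table. On GRCm38 with the GENCODE M21 annotation, the 10 Hoxa genes span bases 52162417 to 52260880 of chromosome 6, the 10 Hoxb genes 96194316 to 96368256 of chromosome 11, the 9 Hoxc genes 102921103 to 103036852 of chromosome 15 and the 9 Hoxd genes 74668310 to 74765142 of chromosome 2.

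Polyadenylated RNA of cultured mouse cells was sequenced in 18 libraries, 3 in each of 6 groups, all at day 7. From heart and from lung alike, the groups were fibroblasts kept as a control, endothelial cells taken from the tissue (native ECs) and iECs. The abbreviation iEC is left unexplained in the labels and is commonly read as induced endothelial cell, a cell of another type turned toward the endothelium. Their titles give SEG in its place, also unexplained. Strain, age, sex, genotype and the agent used to make iECs are not given in the sources used here, and all 6 groups shared EGM2, an endothelial growth medium. The series asks whether iECs take on the endothelial identity of the organ they came from. No label says that the 3 libraries of a group came from separate animals or cultures, and the error behind each p-value is therefore only that among these libraries, which may be technical.

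Library totals ran from 17747632 to 23775372 estimated counts, and in the library with the lowest total 1 count is worth 0.0563 CPM, the unit in which counts are scaled to the library total. The sum of 8 endothelial markers was 1540 to 1630 CPM in heart ECs and 2610 to 2840 in lung ECs, against 203 to 228 in heart fibroblasts and 14.4 to 20.3 in lung fibroblasts. It was 1210 to 1280 in heart iECs and 1110 to 1220 in lung iECs, but its genes did not all rise over fibroblasts. In heart iECs, Cldn5 was lower than in heart fibroblasts (edgeR log2 change -1.74 ± 0.266, SE), Vwf was not called and the others were higher. In lung iECs, Cldn5 was not called against lung fibroblasts and the others were higher. Pecam1 averaged 7.84 CPM in lung iECs against 599 in lung ECs and Vwf 4.11 against 207, while Kdr averaged 299 against 83.3. The EC groups also held markers of other cells. The sum of 7 fibroblast markers was 14700 to 15300 CPM in heart ECs, against 19300 to 20200 in heart fibroblasts, and 3740 to 4790 in lung ECs, against 23100 to 28500 in lung fibroblasts. The sum of 6 macrophage markers was 7760 to 9600 CPM in lung ECs, 2340 to 3820 in lung iECs and 915 to 1200 in lung fibroblasts, with no gene of that list at 0. In these bulk samples, fewer cells of a type and less RNA per cell cannot be told apart.

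As background, Hox genes are known for giving cells a position along the body axis of the embryo. Genes at one end of a cluster (low paralogue numbers, anterior) are switched on early and toward the head, and those at the other end (high numbers, posterior) later and toward the tail. Adult fibroblasts and endothelial cells are known to keep a part of this pattern in culture, so that the Hox genes a cell transcribes mark where in the body it came from. Polycomb proteins hold silent Hox genes shut, Trithorax proteins keep active ones open, and Hox proteins bind DNA together with TALE homeodomain proteins such as Meis.

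The 250 bases before the RefSeq start of 5 genes are shown because the results below turn on them. Hoxd8, Hoxd9 and Hoxd10 are neighbours whose levels separated native ECs from the other cells, and Hoxb8 was the Hox gene that rose in lung iECs. Hoxa5 had the highest level of all Hox genes in lung cells once CPM was divided by exon length. RefSeq held a promoter entry on GRCm38.p6 for 22 of the 38 genes. Each sequence runs 5′ to 3′ on the gene's own strand, with CG dinucleotides in capitals. The positions are chr2:74704365-74704614 (+) for Hoxd8, chr2:74697513-74697726 (+) for Hoxd9, chr2:74691641-74691890 (+) for Hoxd10, chr11:96281655-96281904 (+) for Hoxb8 and chr6:52204588-52204837 (-) for Hoxa5. The gene IDs are ENSMUSG00000027102 (Hoxd8), ENSMUSG00000043342 (Hoxd9), ENSMUSG00000050368 (Hoxd10), ENSMUSG00000056648 (Hoxb8) and ENSMUSG00000038253 (Hoxa5). For Hoxd9, the last 36 bases of the window lie within the gene's own exon in GENCODE and are not printed.
Hoxd8: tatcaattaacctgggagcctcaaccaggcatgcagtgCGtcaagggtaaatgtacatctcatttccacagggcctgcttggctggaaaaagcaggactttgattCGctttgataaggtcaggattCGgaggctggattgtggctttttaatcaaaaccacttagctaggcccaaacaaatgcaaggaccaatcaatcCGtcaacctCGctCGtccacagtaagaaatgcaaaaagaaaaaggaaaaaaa
Hoxd9: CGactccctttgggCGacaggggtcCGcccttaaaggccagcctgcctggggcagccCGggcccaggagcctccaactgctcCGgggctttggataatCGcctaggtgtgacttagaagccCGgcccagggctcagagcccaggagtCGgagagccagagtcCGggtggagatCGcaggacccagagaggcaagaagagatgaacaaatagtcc
Hoxd10: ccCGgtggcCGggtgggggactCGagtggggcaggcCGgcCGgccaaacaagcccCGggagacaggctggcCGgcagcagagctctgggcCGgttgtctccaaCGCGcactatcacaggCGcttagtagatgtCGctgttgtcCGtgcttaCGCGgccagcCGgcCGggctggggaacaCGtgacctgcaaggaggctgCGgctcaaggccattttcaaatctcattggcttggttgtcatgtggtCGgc
Hoxb8: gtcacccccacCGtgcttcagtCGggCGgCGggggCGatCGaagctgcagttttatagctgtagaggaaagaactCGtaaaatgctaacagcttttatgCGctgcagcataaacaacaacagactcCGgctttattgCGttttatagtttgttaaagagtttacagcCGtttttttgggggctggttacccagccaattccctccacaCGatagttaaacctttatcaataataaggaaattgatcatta
Hoxa5: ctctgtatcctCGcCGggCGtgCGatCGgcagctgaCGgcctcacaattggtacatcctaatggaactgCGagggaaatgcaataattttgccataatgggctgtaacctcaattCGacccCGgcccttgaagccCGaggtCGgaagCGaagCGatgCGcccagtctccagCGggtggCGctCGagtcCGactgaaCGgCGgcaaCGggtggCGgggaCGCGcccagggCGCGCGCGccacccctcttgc

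Hoxa5 had 28 CG dinucleotides in its 250 bases, more than 92.4% of the 32851 mouse promoters of the table, and Hoxd10 had 20, Hoxd9 13, Hoxb8 12 and Hoxd8 6. The median promoter had 6. Of 5 motifs searched on both strands in the full 250 bases, CCAAT was found in 4 of the 5 genes, against 33.8% of all promoters of that length. The Hox-Pbx motif TGATNNAT was found in Hoxb8 alone, against 7.68% of all promoters. The Sox motif ATTGTT (9.42% of all promoters), the ETS motif CAGGAAG (10.8%) and the Meis motif TGACAG (15.9%) were in none of the 5. No searched motif holds another, and such matches describe the letters only.

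Which Hox genes were transcribed depended on the organ first and the cell type second. A gene is called expressed here when all 3 libraries of a group reach 1 CPM. By this measure 18 of the 38 genes were expressed in at least 1 group and 20 in none. Hoxb2, Hoxb3 and Hoxb4 were expressed in all 6 groups. Another 10 genes, Hoxa2 to Hoxa5, Hoxa7 and Hoxb5 to Hoxb9, were expressed in all 3 lung groups and in no heart group.

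Heart fibroblasts expressed 5 Hox genes (Hoxb2, Hoxb3, Hoxb4, Hoxd8 and Hoxd9), heart ECs 7 (the same with Hoxd10 and Hoxc13) and heart iECs 4 (Hoxb2, Hoxb3, Hoxb4 and Hoxd8). Lung fibroblasts expressed 14, namely Hoxa2, Hoxa3, Hoxa4, Hoxa5, Hoxa7, Hoxb2 to Hoxb9 and Hoxc4. Lung ECs expressed 16, which were these 13 Hoxa and Hoxb genes with Hoxd8, Hoxd9 and Hoxd10 and without Hoxc4. Lung iECs expressed 15, the 14 of lung fibroblasts and Hoxd8. Hoxb2 to Hoxb4 were thus expressed in all 6 groups and no Hoxa gene in any heart group, while Hoxc13 was expressed in heart ECs alone. Some of these differences lay near the threshold. Lung ECs held 1.64, 0.883 and 2.36 CPM of Hoxc13, and lung fibroblasts 1.52, 1.13 and 0.664 of Hoxd8. Heart iECs held 1.40, 1.94 and 0.960 CPM of Hoxd9, against 1.44, 1.08 and 1.61 in heart fibroblasts.

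**Figure D1:**
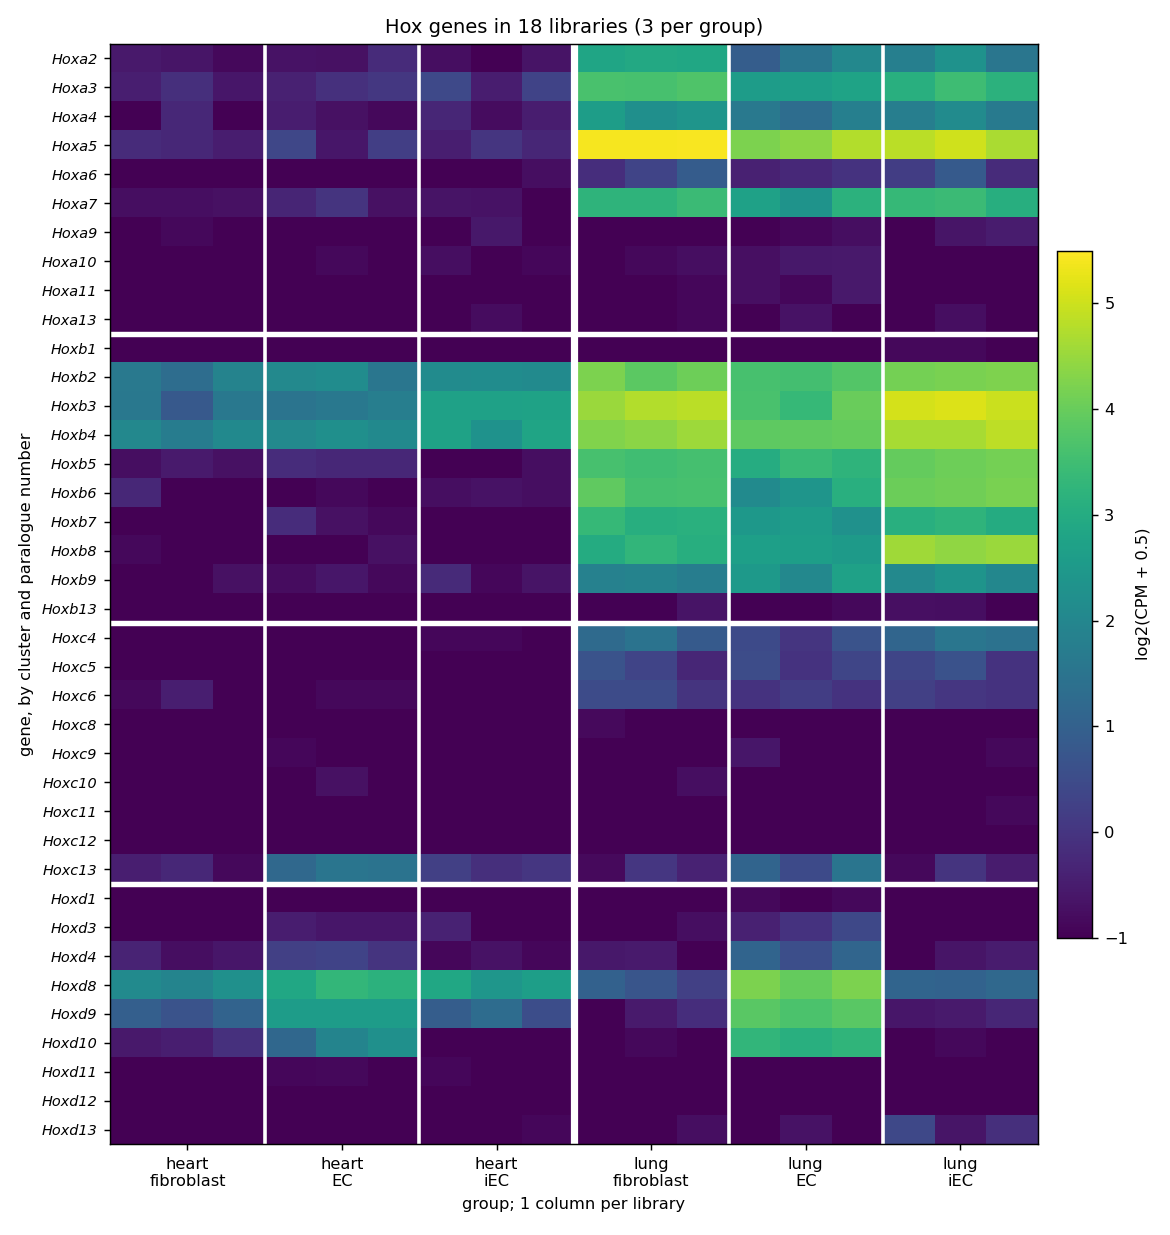
Each row is 1 of the 38 Hox genes, ordered by cluster and paralogue number, and each column is 1 of the 18 libraries; the colour gives log2(CPM + 0.5). The bright Hoxa and Hoxb rows fill the 9 lung libraries, Hoxb2 to Hoxb4 reach across all columns, and Hoxd8 to Hoxd10 are brightest in the lung EC columns.

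Levels between genes are compared per kilobase (kb) of merged exons, the length over which a gene's counts can fall. Summed over the 38 genes, the level was 5.45 ± 0.642 CPM per kb in heart fibroblasts, 12.5 ± 1.07 in heart ECs and 8.53 ± 0.749 in heart iECs (SD, n = 3 each). In lung it was 76.9 ± 1.48 in fibroblasts, 62.9 ± 7.25 in ECs and 79.5 ± 4.14 in iECs. Every lung library stood above every heart library, from 57.8 up against at most 13.3. The order of lung iECs and lung fibroblasts turned with the scaling, at 72.3 and 78.3 CPM per kb with TMM factors.

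The share of each cluster in this sum differed by cell type within lung. Hoxa genes made up 46.7 ± 0.802% of it in lung fibroblasts, 28.7 ± 3.05% in lung ECs and 30.8 ± 3.61% in lung iECs. Hoxb genes made up 50.8 ± 0.604%, 40.5 ± 1.59% and 66.2 ± 3.54%. Hoxd genes made up 28.6 ± 2.69% in lung ECs but 0.732 ± 0.0964% in lung fibroblasts and 1.19 ± 0.219% in lung iECs. In heart, the Hoxd share was 41.1 ± 2.73% in fibroblasts, 60.2 ± 3.92% in ECs and 33.1 ± 2.83% in iECs, and the Hoxb share 49.1 ± 4.94%, 27.2 ± 3.52% and 57.7 ± 2.5% in the same order. By paralogue number, genes 9 to 13 held 22.0 ± 1.83% of the sum in lung ECs, 1.93 ± 0.294% in lung fibroblasts and 2.53 ± 0.159% in lung iECs.

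Hoxa5, which is needed for lung development in the mouse, led in all 3 lung groups at 22.7 ± 0.199 CPM per kb in fibroblasts, 11.4 ± 2.32 in ECs and 15.1 ± 1.95 in iECs (SD, n = 3), with no library overlapping the next gene. Below it the order changed with the cell type. Lung fibroblasts continued with Hoxb4 (8.03), Hoxb6 (6.44), Hoxb3 (6.04) and Hoxb7 (5.56 CPM per kb), each of which overlapped its neighbour in that order. Lung ECs continued with Hoxd8 (6.24), Hoxd9 (6.2) and Hoxb4 (5.70), which overlapped each other in turn, and then Hoxd10 (4.84). Lung iECs continued with Hoxb4 (10.1) and then Hoxb6 (8.54), Hoxb8 (8.40) and Hoxb3 (7.80), of which each pair of neighbours overlapped.

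In heart the range was narrower. Hoxd8 (1.39 CPM per kb) and Hoxb4 (1.32) led in fibroblasts and overlapped. Heart ECs were led by Hoxd8 (3.0) and Hoxd9 (2.59), which overlapped, followed by Hoxd10 (1.72) and Hoxb4 (1.52), which also overlapped. Heart iECs were led by Hoxb4 (2.23) and Hoxd8 (2.10), which overlapped, followed by Hoxb3 (1.44) and Hoxb2 (1.11), which did not.

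**Figure D2:**
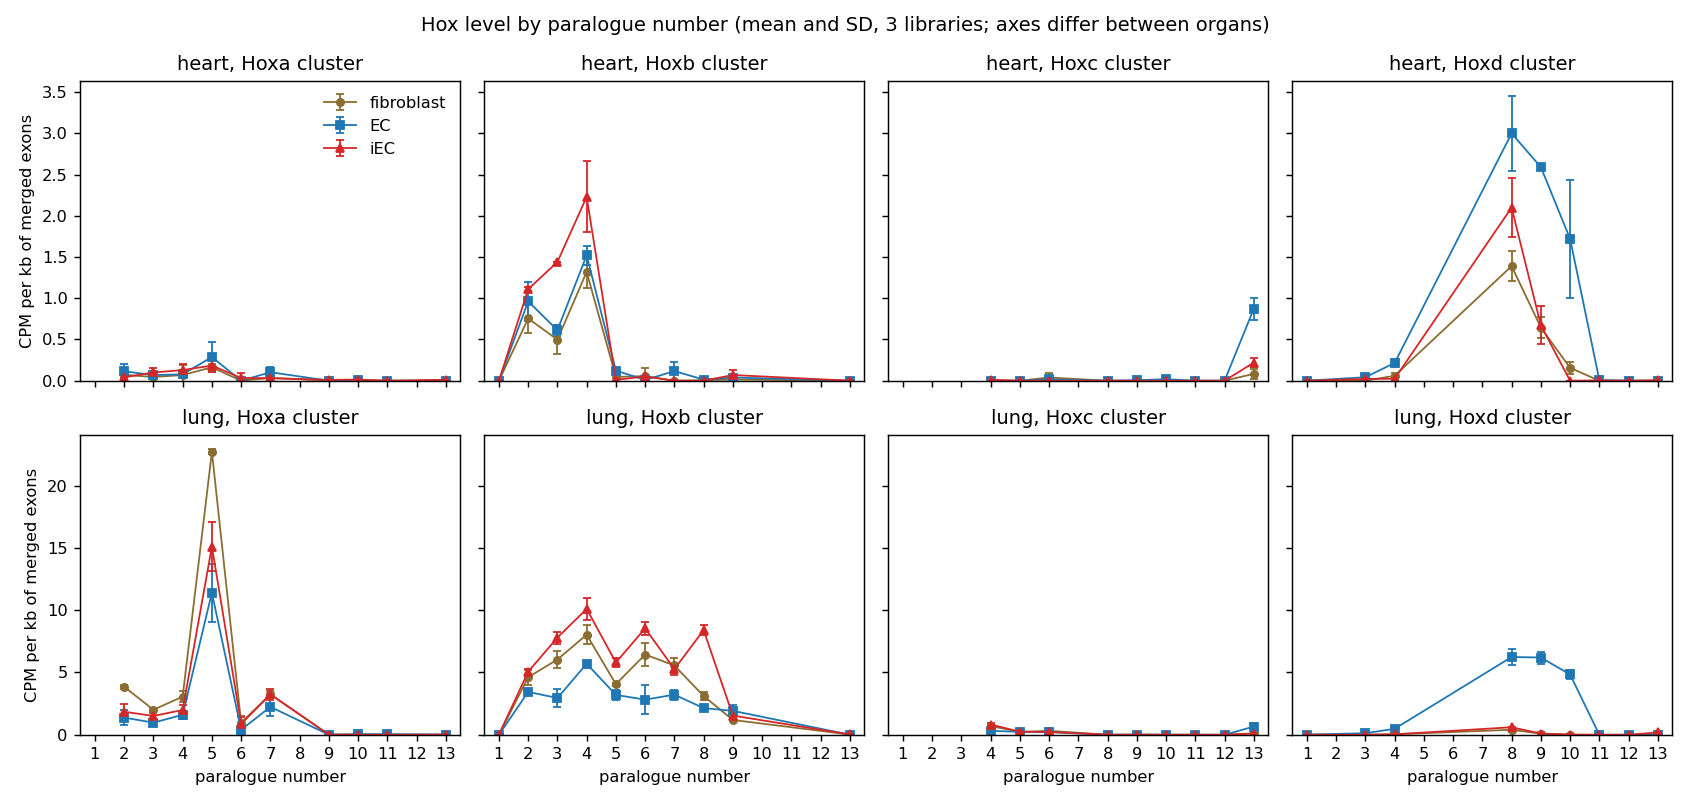
Mean level (CPM per kb of merged exons) with SD over 3 libraries against paralogue number for each cluster, heart above and lung below, on separate vertical axes. In lung the Hoxa panel peaks at Hoxa5, the Hoxb panel is broad and shows Hoxb8 highest in iECs, and the Hoxd panel rises above 4 CPM per kb at Hoxd8 to Hoxd10 in ECs alone.

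Lung cells held more Hoxa and Hoxb RNA than heart cells of the same type. Most tested Hoxc genes were higher in lung too, but not Hoxc13, while the Hoxd genes went in opposite directions. Changes were tested with edgeR over all 14864 genes that passed a count filter, of which 22 were Hox genes: the 18 expressed ones with Hoxa6, Hoxc5, Hoxc6 and Hoxd4. A Hox gene that passed only through its lung libraries had to be higher there, so the counts that follow describe the genes and are no test of the family. In fibroblasts 17 of the 22 were higher in lung and 3 lower. Of all genes, 48.5% were called, 24.6% higher and 23.9% lower. In ECs 20 were higher and 0 lower (47.9% of all genes called, 24.2% higher and 23.7% lower), with 0 lower also at an unadjusted p under 0.05 in edgeR and in DESeq2. In iECs 17 were higher and 2 lower (37.7% of all genes called, 18.9% in each direction).

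By cluster, all 6 tested Hoxa genes, all 8 tested Hoxb genes and 3 of 4 tested Hoxc genes were higher in lung in each cell type. Of the 4 tested Hoxd genes, 3 were lower in lung fibroblasts, 2 lower in lung iECs and 3 higher in lung ECs. The median log2 change over the 22 genes was 5.40 in fibroblasts, 3.90 in ECs and 4.34 in iECs, against 0.01, 0.02 and -0.02 over all genes. A fitted change depends on a small added count where a group has none. With those genes held at a lower bound, for which 3 counts per group stand in for none, the medians were 4.68, 3.67 and 3.98.

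The Hoxa genes were close to silent in heart. Hoxa5 stood at 42.4, 42.4 and 43.0 CPM in lung fibroblasts, 18.1, 20 and 26.4 in lung ECs and 27.7, 32.3 and 25.1 in lung iECs. The 9 heart libraries held 0.16 to 0.806 CPM of it, so the organs were far apart in every cell type. The log2 change from heart to lung was 6.94 ± 0.278 (SE) in fibroblasts, 5.11 ± 0.258 in ECs and 6.2 ± 0.270 in iECs (edgeR adjusted p = 1.22e-12, 1.41e-11 and 4.07e-12).

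The other Hoxa genes of lung ran from Hoxa2, at the anterior end of the cluster, to Hoxa7. Hoxa7 stood at 8.85, 8.93 and 10.3 CPM in lung fibroblasts, 6.09, 4.58 and 8.62 in lung ECs and 9.73, 10.3 and 7.95 in lung iECs, against 0 to 0.481 in heart libraries. Hoxa3 stood at 12, 11.6 and 12.7 CPM, then 5.48, 5.80 and 6.30, then 8.11, 10.6 and 8.48 in the same 3 groups, against 0.161 to 0.856 in heart. These levels were highest in lung fibroblasts for Hoxa3, while for Hoxa7 fibroblasts and iECs overlapped.

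Hoxa2 stood at 6.54, 7.14 and 6.81 CPM in lung fibroblasts, 1.38, 2.36 and 3.61 in lung ECs and 2.98, 4.48 and 2.41 in lung iECs, with 0 to 0.378 in heart libraries. Hoxa4 stood at 5.69, 4.23 and 4.73 CPM, then 2.61, 2.02 and 3.01, then 2.93, 3.91 and 2.67, with 0 to 0.329 in heart. For both, lung fibroblasts lay above the other lung libraries, and ECs and iECs overlapped. Strand use in the counting is not given in the sources used here, and antisense noncoding RNAs share 503 exon bases with Hoxa3, 586 with Hoxa7 and 255 with Hoxa4, so reads of the pairs cannot be told apart if strand was not used.

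Hoxb2, Hoxb3 and Hoxb4 had RNA in heart, and per library total lung cells held 3.54 to 12.3 times as much in each of the 3 cell types. Hoxb4 stood at 3.62, 2.82 and 3.71 CPM in heart fibroblasts and 18.8, 20.2 and 22.8 in lung fibroblasts, a log2 change of 2.47 ± 0.148. It stood at 3.69, 4.22 and 3.78 CPM in heart ECs and 14.3, 14.6 and 15.0 in lung ECs, a change of 1.77 ± 0.146. In iECs it stood at 6.22, 4.47 and 6.50 CPM from heart and 24.5, 24.8 and 28.6 from lung, a change of 2.06 ± 0.140. Each was called (edgeR adjusted p = 1.99e-10, 1.27e-08 and 1.67e-09), and heart and lung libraries did not overlap.

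Hoxb2 stood at 2.60, 2.02 and 3.28 CPM in heart fibroblasts, 3.69, 3.95 and 2.43 in heart ECs and 3.88, 3.96 and 3.80 in heart iECs. In lung it stood at 18.1, 14 and 16.1, then 11.7, 11.3 and 13.1, then 17, 17.7 and 18.3 CPM. Hoxb2 thus kept a gap between organs in every cell type, with log2 changes of 2.47, 1.68 and 2.07. Hoxb3os, a noncoding RNA on the other strand, shares 953 exon bases with Hoxb2 and 2250 with Hoxb3.

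From Hoxb5 on, the Hoxb genes were at or near 0 in heart. Hoxb8 had 1 count over the 3 libraries of heart fibroblasts, 2 over heart ECs and 0 over heart iECs. In lung it stood at 7.44, 9.21 and 7.92 CPM in fibroblasts, 5.84, 5.72 and 5.37 in ECs and 23.1, 21.0 and 22.3 in iECs. Lung iECs were at least 507-fold above heart iECs, taking 3 counts over the heart group as its floor.

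Hoxb7 had 0 counts in heart fibroblasts and heart iECs and 12 in heart ECs. Lung fibroblasts held 9.64, 7.94 and 8.18 CPM of it, lung ECs 5.02, 5.55 and 4.35 and lung iECs 8.01, 8.87 and 7.54. The lung fibroblast level was at least 174-fold that of heart fibroblasts. Such floors and intervals hold for counting error alone, because without molecular identifiers reads of 1 molecule may be counted repeatedly.

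Hoxb5 stood at 11.6, 10.9 and 11.5 CPM in lung fibroblasts, 7.68, 10.1 and 8.94 in lung ECs and 15.1, 16.2 and 17.2 in lung iECs, against 0 to 0.382 in heart libraries. Hoxb6 stood at 14.6, 11.5 and 11.8 CPM, then 3.79, 4.71 and 8.11, then 15.9, 16.5 and 17.9, against 0 to 0.325 in heart. By plain library totals both were highest in lung iECs and lowest in lung ECs, with no overlap between the 3 groups. Neither was called between lung iECs and lung fibroblasts in edgeR, which scales by TMM factors. Hoxb9, the most posterior Hoxb gene expressed, stood at 3.10, 3.24 and 2.88 CPM in lung fibroblasts, 5.12, 3.58 and 6.11 in lung ECs and 3.66, 4.68 and 3.56 in lung iECs, against 0 to 0.361 in heart.

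The Hoxc genes were low throughout. Hoxc4 stood at 1.86, 2.26 and 1.28 CPM in lung fibroblasts, 0.871, 0.505 and 1.07 in lung ECs and 1.67, 2.43 and 2.25 in lung iECs, with 2 counts in all over the 9 heart libraries. Hoxc5 reached at most 1.07 CPM and Hoxc6 at most 0.902, both in lung fibroblasts. Hoxc13, at the far posterior end of its cluster, passed the test between ECs and each of the other cell types and not between organs. It stood at 1.78, 2.40 and 2.27 CPM in heart ECs and 1.64, 0.883 and 2.36 in lung ECs, and at most at 0.676 in any fibroblast or iEC library.

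**Figure D3:**
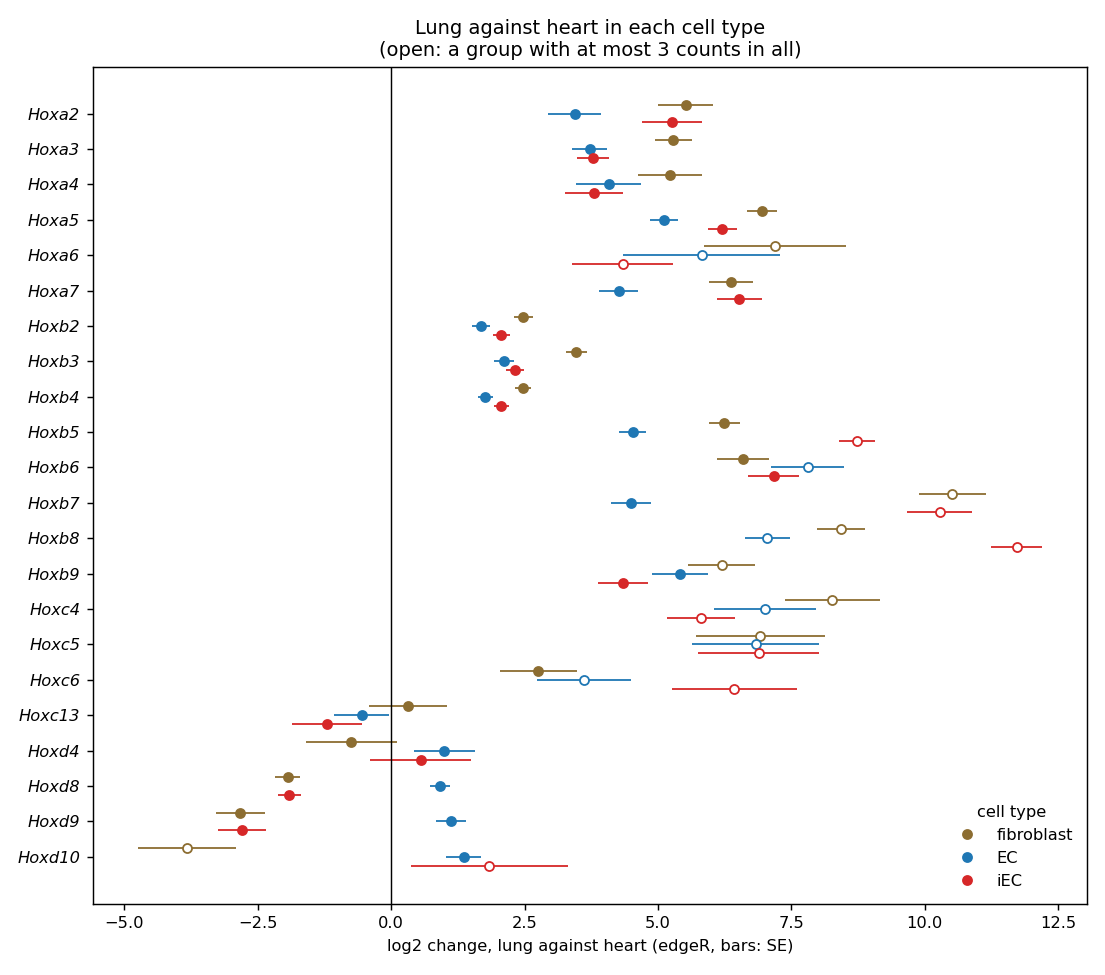
Log2 change from heart to lung (edgeR, bars are SE) for the 22 tested Hox genes in fibroblasts, ECs and iECs; open points mark a group with at most 3 counts in all, where the fitted value depends on a small added count. Hoxa and Hoxb genes lie to the right of 0 in all cell types, and Hoxd8 and Hoxd9 lie to the left in fibroblasts and iECs and to the right in ECs.

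Hoxd8, Hoxd9 and Hoxd10, 3 neighbours of the Hoxd cluster, were the Hox genes whose organ difference turned with the cell type. Hoxd8 stood at 3.81, 3.29 and 4.31 CPM in heart fibroblasts and 1.52, 1.13 and 0.664 in lung fibroblasts, lower in lung by a log2 change of -1.94 ± 0.233 (edgeR adjusted p = 1.60e-06). It stood at 6.76, 4.81 and 5.72 CPM in heart iECs and 1.62, 1.57 and 1.78 in lung iECs, a change of -1.91 ± 0.215 (edgeR adjusted p = 1.16e-06). In ECs the order was the reverse, at 6.83, 9.30 and 8.52 CPM in heart and 18.2, 15.1 and 18.1 in lung, a change of 0.92 ± 0.183 (edgeR adjusted p = 4.35e-04). No heart library overlapped a lung library of the same cell type.

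Hoxd9 behaved alike. It stood at 1.44, 1.08 and 1.61 CPM in heart fibroblasts against 0, 0.188 and 0.398 in lung, and at 1.40, 1.94 and 0.960 in heart iECs against 0.157, 0.191 and 0.314 in lung. In ECs it stood at 5.52, 5.56 and 5.5 CPM in heart and 13.9, 12.1 and 13.8 in lung. The log2 changes were -2.83 ± 0.457, -2.79 ± 0.451 and 1.12 ± 0.279 in fibroblasts, iECs and ECs (edgeR adjusted p = 5.04e-05, 7.45e-05 and 0.00289).

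Hoxd10 stood at 1.74, 3.31 and 4.32 CPM in heart ECs and 9.22, 8.12 and 9.03 in lung ECs, a change of 1.36 ± 0.331 (edgeR adjusted p = 0.00289). It had 17 counts over heart fibroblasts, 1 over lung fibroblasts, 0 over heart iECs and 1 over lung iECs, so that beyond the ECs it was nearly absent. The test of the difference itself called all 3 genes between ECs and fibroblasts. Over the 22 Hox genes it called 3 as having a higher change to lung in ECs than in fibroblasts and 8 a lower one, beside 34.5% of all genes (16.2% higher and 18.3% lower). The change from heart to lung was higher in ECs than in fibroblasts by 2.86 ± 0.297 for Hoxd8, 3.94 ± 0.535 for Hoxd9 and 5.19 ± 0.952 for Hoxd10 (edgeR adjusted p = 5.57e-07, 1.30e-05 and 4.38e-04), the last resting on 1 count in lung fibroblasts. It was lower in iECs than in ECs by -2.83 ± 0.283 for Hoxd8 and -3.90 ± 0.530 for Hoxd9 (edgeR adjusted p = 6.65e-07 and 2.33e-05). Between iECs and ECs 4 Hox genes had a higher change and 2 a lower one, beside 26% of all genes (13.8% and 12.2%). Between iECs and fibroblasts the numbers were 1 and 2, beside 25.2% (12.6% in each direction).

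**Figure D4:**
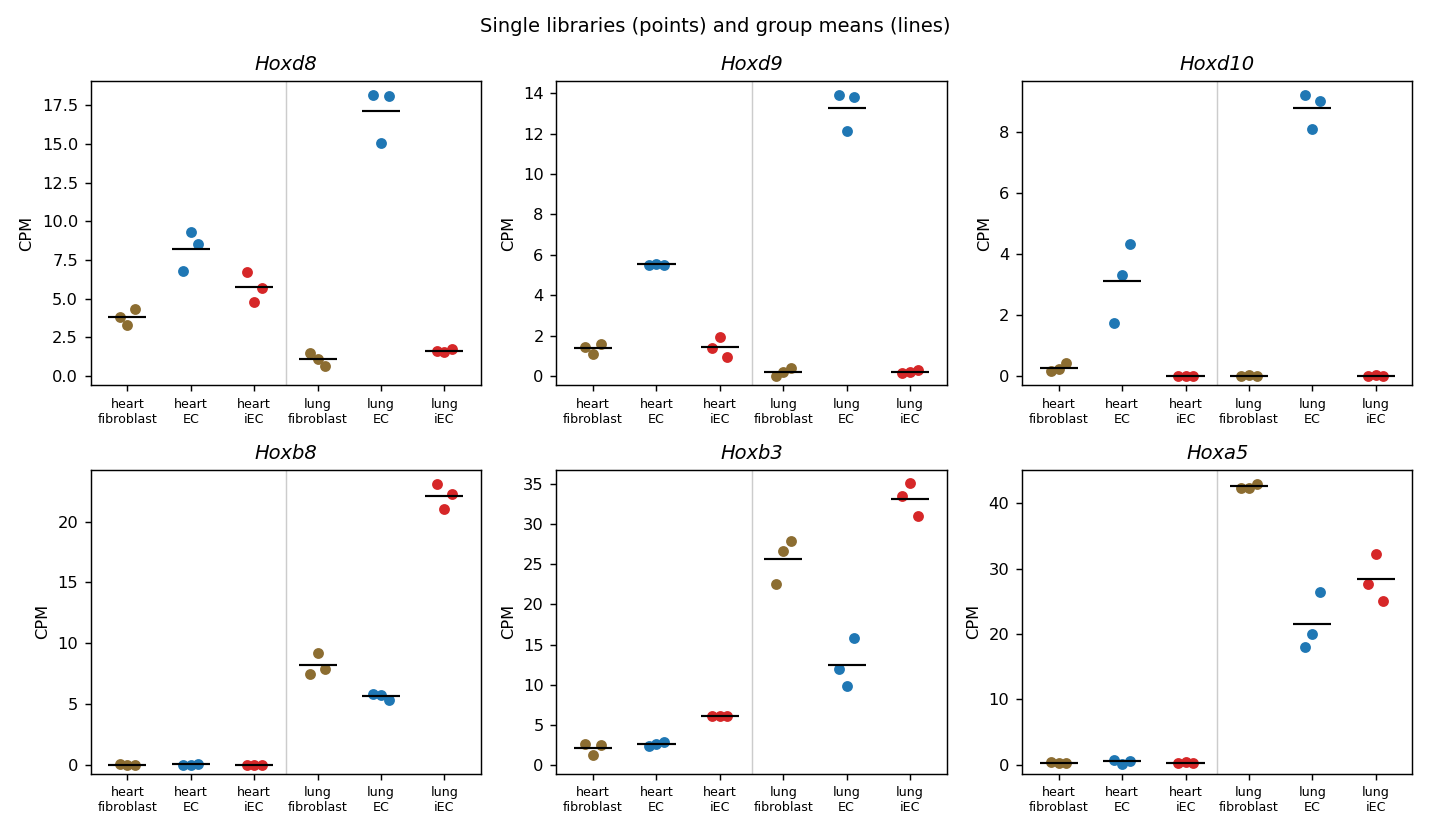
CPM of 6 Hox genes in every library (points) with group means (lines), each gene on its own vertical axis from 0. Hoxd8, Hoxd9 and Hoxd10 are highest in the 3 lung EC libraries, Hoxb8 and Hoxb3 in the 3 lung iEC libraries, and Hoxa5 in the 3 lung fibroblast libraries.

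Against fibroblasts of the same organ, native ECs carried more of the middle Hoxd genes in both organs, and in lung less of most Hoxa and Hoxb genes. In heart 6 of the 22 Hox genes were higher in ECs and 0 lower, beside 47.4% of all genes called (24.2% higher and 23.3% lower), with 8 and 0 at an unadjusted p under 0.05 in edgeR and 6 and 0 in DESeq2. In lung 5 were higher and 13 lower, beside 58.1% of all genes called (29.3% higher and 28.7% lower). The tested Hoxd genes accounted for 4 of the 5 that were higher in lung ECs, and 5 Hoxa and 7 Hoxb genes for 12 of the 13 that were lower. Hoxd4 and Hoxd10 reached at most 0.278 and 0.431 CPM in any fibroblast or iEC library. They passed the count filter only through EC libraries, so their calls describe the genes and are no test. The median log2 change over the 22 was 0.61 in heart and -0.65 in lung, against 0.00 over all genes in both.

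In heart, Hoxd9 was higher in ECs by 1.89 ± 0.316 and Hoxd8 by 0.995 ± 0.195 on the log2 scale (edgeR adjusted p = 8.64e-05 and 4.14e-04). Hoxd10 and Hoxc13 were called too, at 3.33 ± 0.435 and 3.21 ± 0.631, from group means of 0.284 and 0.205 CPM in fibroblasts to 3.12 and 2.15 in ECs. Hoxb5 and Hoxb7, also called, stayed at or under 0.382 CPM in every heart library. Hoxb5 lost its call in 5 of the 6 fits without 1 library (adjusted p of 0.0627 to 0.155), without the count filter (adjusted p = 0.0725) and in DESeq2 (adjusted p = 0.066). In this comparison 8 of the 22 genes had under 10 counts over each group, and all 6 calls fell among the other 14.

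Markers of other cells differed between the same heart groups. All 5 mesothelial markers were called higher in heart ECs, with a sum of 281 to 407 CPM against 36.7 to 50.6 in heart fibroblasts. Of 6 smooth muscle and pericyte markers 4 were called higher, with a sum of 331 to 449 CPM against 228 to 267, and no gene of these lists was at 0 in either group. Of 6 epithelial markers 3 were called higher, at 11.7 to 22.2 CPM in sum against 1.03 to 1.56, with 3 of the 6 at 0 in heart ECs. Their part in the Hoxd difference in heart was not tested.

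In lung the Hoxd differences were larger. Hoxd8 was higher in ECs than in fibroblasts by 3.85 ± 0.224 and Hoxd9 by 5.83 ± 0.404 (edgeR adjusted p = 6.05e-11 and 7.41e-10). Hoxd10 had 568 counts over the lung ECs and 1 over the lung fibroblasts, a ratio of 540 with a 95% counting interval of 96.4 to 21300. Hoxd4, which shares 1154 exon bases with Hoxd3 and Gm28230 on the same strand and so has uncertain counts, rose from a mean of 0.119 to 1.42 CPM.

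The Hoxa and Hoxb genes that fell in lung ECs did so by less. Hoxa2 fell by 1.60 ± 0.360, Hoxb6 by 1.31 ± 0.297, Hoxa3 and Hoxb3 by 1.16 each (± 0.239 and ± 0.165) and Hoxa5 by 1.11 ± 0.173 on the log2 scale (edgeR adjusted p = 9.18e-04, 0.00100, 4.04e-04, 8.19e-06 and 2.38e-05). Hoxb7 fell by 0.90 ± 0.253 (edgeR adjusted p = 0.00732). Hoxa7 fell by 0.67 ± 0.251 (edgeR adjusted p = 0.0289) and lost its call in 3 of the 6 fits that left out 1 lung fibroblast or EC library, at adjusted p of 0.0973 without fibroblast replicate 3, 0.0761 without EC replicate 1 and 0.132 without EC replicate 2, and with library totals alone (adjusted p = 0.0793). Hoxb9 was not called. In the same comparison the macrophage marker sum differed by the ranges given above, and 6 epithelial markers summed to 258 to 313 CPM in lung ECs against 12.4 to 19.3 in lung fibroblasts, and the part of these cells in the Hox levels was not tested.

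In iECs the Hox pattern lay close to that of fibroblasts of the same organ. Over the 22 genes, the root mean square difference in log2(CPM + 0.5) between libraries averaged 0.545 for lung iECs against fibroblasts of lung and 1.70 for lung iECs against native ECs of lung. In heart it averaged 0.499 between iECs and fibroblasts and 0.894 between iECs and ECs. Replicates of 1 group differed by 0.279 to 0.410 on average, and lung and heart groups by 2.38 to 3.14. The pairs compared share the iEC libraries, so these distances are a description.

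Between iECs and fibroblasts, Hoxb3 and Hoxb4 rose in heart and Hoxb8 in lung. In heart 2 of the 22 were higher and 3 lower in iECs, beside 50.7% of all genes called (26% higher and 24.6% lower), and in lung 1 was higher and 3 lower, beside 50.6% (25.9% and 24.7%). A call needs counts, and 10 of the 22 had under 10 counts over the heart fibroblasts and over the heart iECs, having passed the filter through other groups. Of the 12 with more, 2 were called higher and 1 lower in heart iECs, while in lung all 4 calls fell among 20 genes with that many counts. The count in heart depended on the libraries and the scaling. It was 3 without iEC replicate 1, and 8, with 6 higher and 2 lower, when libraries were scaled by their totals alone, which shifts the median change of all genes in this comparison from 0.02 to 0.21.

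Hoxb3, an anterior gene of the hindbrain and pharyngeal pattern, had the largest called rise of these in heart. It stood at 2.55, 1.27 and 2.53 CPM in heart fibroblasts, 2.33, 2.56 and 2.91 in heart ECs and 6.13, 6.11 and 6.15 in heart iECs. Heart iECs thus lay above both the fibroblasts and the native ECs of heart, by 1.35 ± 0.202 and 1.17 ± 0.197 on the log2 scale (edgeR adjusted p = 1.84e-05 and 7.84e-05). These Hoxb3 values are uncertain, since reads of Hoxb3os over the 2250 shared exon bases cannot be told apart from them if strand was not used. Hoxb4 was higher in heart iECs than in fibroblasts by 0.57 ± 0.153 (edgeR adjusted p = 0.00422).

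Hoxd10 fell from 0.186, 0.235 and 0.431 CPM in heart fibroblasts to no count in any heart iEC library, at least 6.35-fold lower. Hoxb5 and Hoxc6, the other called genes in heart, had at most 8 counts over either group. Both lost their calls without 1 library, Hoxb5 in 3 of 6 such fits (adjusted p of 0.147 to 0.174) and in DESeq2 (adjusted p = 0.0735), and Hoxc6 in 4 (adjusted p of 0.0505 to 0.227). In lung, Hoxb3 stood at 22.6, 26.6 and 27.9 CPM in fibroblasts, 11.9, 9.80 and 15.8 in ECs and 33.5, 35.1 and 31 in iECs. Lung iECs lay above lung fibroblasts without overlap, but the difference did not pass the test. The change from heart to lung in Hoxb3 was smaller in iECs than in fibroblasts by -1.15 ± 0.258 (edgeR adjusted p = 0.00282).

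Hoxb8 was the Hox gene called higher in lung iECs than in lung fibroblasts. With 21.0 to 23.1 CPM against 7.44 to 9.21, it rose by 1.27 ± 0.197 on the log2 scale (edgeR adjusted p = 4.83e-05), and it rose over lung ECs by 1.92 ± 0.202 (edgeR adjusted p = 9.47e-07). Its Hoxb neighbours did not pass the test against fibroblasts. Hoxb8 had no count in heart iECs, so no fold could be given there. The difference between organs in this rise did not pass the test (edgeR adjusted p = 0.221), and its fitted value depends on the small added count, since the heart groups held 1 and 0 counts. Beside this rise, all 6 smooth muscle and pericyte markers were called higher in lung iECs than in lung fibroblasts, with a sum of 2330 to 3050 CPM against 514 to 660. In heart iECs all 6 were called higher as well, at 1060 to 1170 CPM against 228 to 267 in heart fibroblasts. The sum of 4 Schwann and neural crest markers was 56.7 to 63.4 CPM in lung iECs against 0.902 to 1.59 in lung fibroblasts, with 1 of 3 tested genes called higher and 1 of the 4 at 0 in the iECs. The part of such cells in the Hoxb8 level was not tested.

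Of the Hoxa genes, Hoxa2 fell by 1.22 ± 0.355 and Hoxa5 by 0.75 ± 0.171 in lung iECs against lung fibroblasts (edgeR adjusted p = 0.00798 and 0.00124). Hoxa3 fell by 0.58 ± 0.234 (edgeR adjusted p = 0.0469) and lost its call in 5 of the 6 fits without 1 of the libraries compared, at adjusted p of 0.0733 to 0.148. Without lung iEC replicate 2, it kept its call. It also lost it with RLE scaling (adjusted p = 0.056), without the count filter (adjusted p = 0.0719) and with library totals alone (adjusted p = 0.152). The sum of 7 fibroblast markers was 6970 to 9700 CPM in these iECs against 23100 to 28500 in lung fibroblasts, and the macrophage sum was higher in the iECs by the ranges given above. Their part in these falls was not tested.

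Against native ECs of the same organ, iECs held less RNA of the tested Hoxd genes. In lung 8 of the 22 Hox genes were higher in iECs than in ECs and 5 lower, beside 45.2% of all genes called (22.2% higher and 23% lower). In heart 2 were higher and 8 lower, beside 48.9% (24.5% and 24.4%). All 4 tested Hoxd genes were lower in iECs in both organs. Because Hoxd4 and Hoxd10 passed the count filter only through EC libraries, their calls describe the genes and are no test. In heart all 10 calls fell among 16 genes with at least 10 counts over a group.

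In lung, Hoxd9 was lower in iECs than in ECs by -5.92 ± 0.404 and Hoxd8 by -3.41 ± 0.213 (edgeR adjusted p = 1.19e-09 and 3.41e-10). Hoxd10 had 1 count over the lung iECs against 568 over the lung ECs, a ratio of 518 with a 95% counting interval of 92.6 to 20500. In heart, Hoxd9 was lower in iECs by -2.01 ± 0.311 (edgeR adjusted p = 3.15e-05), and Hoxd10, with 183 counts over the ECs and none over the iECs, was at least 69.0-fold lower. Hoxd8 was lower by -0.58 ± 0.189 (edgeR adjusted p = 0.0163), a call that was lost without heart EC replicate 2 (adjusted p = 0.0727) or heart iEC replicate 2 (adjusted p = 0.0844). It stayed expressed in heart iECs. By plain library totals all 3 of their libraries, from 4.81 CPM up, lay above the heart fibroblasts at 3.29 to 4.31. In edgeR, which scales by TMM factors, Hoxd8 was not called between these groups. Hoxc13 was lower in iECs in both organs, by -2.05 ± 0.555 in heart and -2.70 ± 0.621 in lung.

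Markers of other cells also differed between iECs and ECs. Of 5 mesothelial markers 4 were called lower in iECs than in ECs in each organ, with sums of 3.5 to 4.67 CPM against 281 to 407 in heart and 16.2 to 21.9 against 189 to 305 in lung, and none was at 0 in any group. The mesothelial sum was 36.7 to 50.6 CPM in heart fibroblasts and 204 to 213 CPM in lung fibroblasts. All 5 tested epithelial markers were lower in lung iECs than in lung ECs, at 3.98 to 5.15 CPM in sum against 258 to 313, as were all 6 macrophage markers, by the ranges given above. The part of these cells in the Hoxd levels of ECs was not tested.

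Of the 8 genes higher in lung iECs than in lung ECs, 7 were Hoxb genes. Beside Hoxb8, Hoxb6 was higher by 1.56 ± 0.296, Hoxb3 by 1.37 ± 0.165, Hoxb5 by 0.81 ± 0.174, Hoxb4 by 0.78 ± 0.131 and Hoxb2 by 0.51 ± 0.155 (edgeR adjusted p = 3.23e-04, 2.15e-06, 9.15e-04, 8.90e-05 and 0.0116). Hoxb7, at 0.66 ± 0.253 (edgeR adjusted p = 0.0476), lost its call in all 6 fits without 1 of the libraries compared, at adjusted p of 0.0546 to 0.127, and without the count filter (adjusted p = 0.0539).

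The 20 genes expressed in no group were mostly silent. Hoxc12 and Hoxd12 had no count in any library, and the highest value of the 20 was 1.67 CPM, for Hoxd4 in a lung EC library. Among genes too low for a test, Hoxd13, the most posterior Hoxd gene, stood at 0.837, 0.143 and 0.419 CPM in lung iECs, with 27 counts against 2 over lung fibroblasts and 3 over lung ECs. The ratio to fibroblasts was 14.1 with a 95% counting interval of 3.53 to 122, and 1 lung iEC library held 16 of the 27 counts. Hoxd3 stood at 0.256, 0.463 and 0.834 CPM in lung ECs and had no count in lung iECs, but it shares 2225 exon bases with Hoxd4 and Gm28230, and the split between them is uncertain. Hoxa9 to Hoxa13 stayed at or under 0.209 CPM.

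The cofactors and regulators of Hox genes moved in several directions. Of 9 TALE cofactors, 5 were higher and 2 lower in lung fibroblasts than in heart fibroblasts, 1 higher and 4 lower in lung ECs than in heart ECs, and in iECs 2 were higher and 2 lower from lung, beside 48.5%, 47.9% and 37.7% of all genes called in either direction. Meis1, a partner of Hox proteins, was higher in lung in all 3 cell types, by 1.34 ± 0.107, 0.59 ± 0.113 and 0.30 ± 0.103 on the log2 scale in fibroblasts, ECs and iECs. The call in iECs was lost without heart iEC replicate 1 or 2 or lung iEC replicate 1 or 2, at adjusted p of 0.0523 to 0.134. Pknox2 was lower in lung in all 3, by -1.2 ± 0.125, -1.67 ± 0.140 and -0.96 ± 0.126. Against lung fibroblasts, lung ECs had 6 of the 9 lower (28.7% of all genes), with Pknox2 at -2.25 ± 0.139 and Meis1 at -1.68 ± 0.108.

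Skap2, which borders the Hoxa cluster, was the neighbour gene that moved with the organ. Its mean was 37.4 to 42.3 CPM in the heart groups and 89.1 to 99.5 in the lung groups, and the log2 change to lung was 1.2 ± 0.066 in fibroblasts, 1.09 ± 0.0657 in ECs and 1.13 ± 0.0658 in iECs. Of the 11 tested neighbours of the 4 clusters, 5, 4 and 3 were called between organs in these cell types, in both directions, beside 48.5%, 47.9% and 37.7% of all genes.

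Cdx4, a caudal homeobox gene known to act upstream of posterior Hox genes, was without a count in heart fibroblasts, and heart iECs held 3.92 to 4.89 CPM of it and lung iECs 0.572 to 0.942. It was lower in lung iECs than in heart iECs by -2.73 ± 0.471 (edgeR adjusted p = 5.75e-04). Of the retinoic acid receptors, which carry the signal that induces Hox genes in the embryo, Rarb was higher in lung by 0.53 ± 0.128 in fibroblasts, 1.53 ± 0.130 in ECs and 1.48 ± 0.126 in iECs. The other receptors did not share this pattern. Rarg was higher (0.47 ± 0.102) and Rxra lower (-0.86 ± 0.101) in lung fibroblasts, and Rara was higher in lung ECs (0.51 ± 0.104). The other tested receptors were not called in iECs. Of all genes, 48.5%, 47.9% and 37.7% were called between organs in these cell types.

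Polycomb repressors and Trithorax genes were called in both directions between organs. Of 17 Polycomb genes, 3 were higher and 4 lower in lung in fibroblasts, 4 higher and 1 lower in ECs and 1 higher and 4 lower in iECs, beside 48.5%, 47.9% and 37.7% of all genes called in either direction. Of 11 Trithorax and H3K27 demethylase genes, 3 were higher and 1 lower in lung in fibroblasts, and 3 were higher in ECs, beside the same shares. In iECs the genes of this list were not called between organs. In heart iECs 6 of these 11 were higher and 1 lower than in heart fibroblasts (26% and 24.6% of all genes), with a median log2 change of 0.30 against 0.02 over all genes. In lung iECs against lung fibroblasts, Kmt2d and Kdm6b were called higher and Men1 and Psip1 lower, beside 25.9% and 24.7% of all genes.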

How the data were processed

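The authors deposited 1 table of estimated counts per gene (expected counts, whole numbers, not scaled) for all 18 libraries. Salmon, DESeq2 and mm10 are the tools and genome build listed in the submitters' processing notes. Versions, the transcript annotation, the summing of transcripts to genes and the use of strand are not given in the sources used here. Of 35727 gene IDs, 35422 were paired with symbols through GENCODE M21 on GRCm38, and IDs without one held 0.0532% of the counts. One further Hox gene and 11 listed noncoding RNAs of the clusters are not analysed here.

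Groups came from the labels. The counts were fitted in R 4.3.3 with edgeR 4.0.16: filterByExpr on the 6 groups (minimum count 10, 14864 genes, 99.97% of counts, 22 of 38 Hox genes), TMM factors of 0.889 to 1.11, robust quasi-likelihood fits over all 18 libraries with 1 coefficient per group (12 residual degrees of freedom, biological coefficient of variation 0.135). A call means a p under 0.05 after Benjamini-Hochberg adjustment over all genes of a comparison. The SE of a change is its absolute log2 value over the square root of the F statistic. The script was tested on simulated data.

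Printed CPM uses plain library totals, and levels per kb use merged GENCODE exons. Promoters came from RefSeq on GRCm38.p6. Every Hox gene may be named, those expressed in a group with every library, and full statistics go to called genes whose higher group reaches 5 CPM, up to 10 per comparison by size of change. Up to 4 genes of each other list with at least 5 CPM, and 1 in the opposite direction, may be named, and Cdx4 was named after its values were seen. Genes and lists were chosen with earlier results of these data known. As alternatives, fits used DESeq2 1.42.0, RLE factors, every gene with a count, at least 5 CPM in 3 libraries, the compared groups alone, a replicate block, a test against a log2 change of 1, each library left out and, chosen after seeing the data, scaling by library totals alone.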

Additional observations from a re-analysis of the deposited data

Results flagged for a closer look

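For 20 pairs of a Hox gene and a comparison, the change from heart to lung differed between cell types by a test of the difference itself (edgeR, adjusted p under 0.05). These values are differences of log2 changes. Those that involve a group with few counts depend on a small count added in the fit.

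The middle Hoxd genes had a higher change from heart to lung in ECs than in fibroblasts, by 2.86 for Hoxd8, 3.94 for Hoxd9 and 5.19 for Hoxd10, and a lower one in iECs than in ECs, by -2.83 for Hoxd8 and -3.90 for Hoxd9. The Hoxd8 and Hoxd9 calls held without each library in turn.

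Several Hoxa and Hoxb genes had a smaller change in ECs than in fibroblasts. The differences were -1.57 for Hoxa3, -1.83 for Hoxa5, -2.11 for Hoxa7, -0.79 for Hoxb2, -1.35 for Hoxb3, -0.70 for Hoxb4, -1.72 for Hoxb5 and -6.03 for Hoxb7. Hoxb7 had no count in heart fibroblasts and 12 in heart ECs, and heart EC replicate 1 held 9 of the 12. Hoxa3, Hoxa5, Hoxa7 and Hoxb2 lost their calls without 1 library. Without heart EC replicate 1, Hoxa5 stood at -1.36 (adjusted p = 0.0706) and Hoxa7 at -2.09 (adjusted p = 0.0523). Hoxa7 also lost its call without heart EC replicate 2 (-1.65, adjusted p = 0.114) and without heart fibroblast replicates 1 (-2.07, adjusted p = 0.0569) and 2 (-2.08, adjusted p = 0.0556). Hoxb2 lost it without heart fibroblast replicate 2 (-0.63, adjusted p = 0.0584), heart EC replicate 1 (-0.70, adjusted p = 0.0543) and heart EC replicate 2 (-0.67, adjusted p = 0.0554). Hoxa3 lost it in 4 such fits, at adjusted p of 0.0674 to 0.113: without heart fibroblast replicates 1 and 3, and without heart EC replicates 2 and 3.

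Between iECs and fibroblasts, the difference was -1.50 for Hoxa3, -1.15 for Hoxb3 and 2.48 for Hoxb5. Hoxb3 kept its call without each library in turn. Hoxa3 lost it in 7 such fits, at adjusted p of 0.0537 to 0.136: without heart fibroblast replicates 1 and 3, heart iEC replicates 1 and 3, lung fibroblast replicate 3 and lung iEC replicates 1 and 3. Hoxb5, with 2 counts over heart iECs, lost it without heart fibroblast replicate 2 (adjusted p = 0.163), heart iEC replicate 1 (adjusted p = 0.122) and heart iEC replicate 2 (adjusted p = 0.134), and in DESeq2 (adjusted p = 0.064).

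Between iECs and ECs, the difference was 2.26 for Hoxa7, 4.20 for Hoxb5, 5.79 for Hoxb7 and 4.68 for Hoxb8. Hoxb8 had 2 counts over heart ECs, both in replicate 3, and without that library its value was 1.92 (adjusted p = 1.0). It also lost its call without each heart iEC library, at adjusted p of 0.0721 to 0.0761, and without the count filter (adjusted p = 0.0567). Hoxa7 lost its call without heart EC replicate 2 (adjusted p = 0.0989) and heart iEC replicate 3 (adjusted p = 0.0557).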

How the results depend on the processing

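Of 135 pairs of a Hox gene and a comparison in which it was called, 49 lost the call under at least 1 alternative, and none reversed. All 49 lost it in a test against a log2 change of 1, which no change under 1 can pass, 22 without 1 library and 10 in other settings. Of 15 such pairs for Meis1, Pknox2, Skap2, Rarb and Cdx4, 7 lost the call against a log2 change of 1 and 1, Meis1 in iECs between organs, without 1 library. The numbers of Hox genes called between organs stayed within 1.5 times the reported ones in every alternative run: leaving out each library in turn gave 20 to 20 in fibroblasts, 20 to 20 in ECs and 19 to 19 in iECs. For iECs against fibroblasts in heart, the reported 5 became 8 with scaling by library totals alone, 2 with the compared groups alone, 1 against a log2 change of 1 and 3 to 7 without 1 library, the 3 being without heart iEC replicate 1. Fewer genes passed against a log2 change of 1 in the other comparisons: 0 for iECs against fibroblasts in lung (1 at an unadjusted p under 0.05, and 6 in the DESeq2 test of any change), 5 for ECs against fibroblasts in lung, 5 and 7 for iECs against ECs in heart and lung, 0 for the difference between organs of iECs and fibroblasts (3 unadjusted, and 2 in DESeq2 without that minimum) and 4 for that of ECs and fibroblasts. Without 1 library, the difference of iECs and fibroblasts gave 1 to 4 calls, the 1 without heart iEC replicate 1. At a threshold of 5 CPM, 0 Hox genes counted as expressed in heart fibroblasts, 2 in heart ECs, 1 in heart iECs and 10 in lung ECs. The summed Hox level without division by length, on TMM-scaled CPM, was 17.2 in heart fibroblasts, 33.2 in heart ECs, 25.2 in heart iECs, 192 in lung fibroblasts, 144 in lung ECs and 186 in lung iECs. Per kb it was 6.12 (TMM) or 6.1 (RLE) in heart fibroblasts and 72.3 or 72.7 in lung iECs, so that under these scalings lung iECs lay below lung fibroblasts (78.3 and 77.5). The causes were not tested.

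Same-numbered libraries of different groups did not deviate together (median r of 0.006 over 45 pairs, -0.398 to 0.117). This shows no large effect shared by number, but it cannot exclude a shared origin, which the labels do not give. With a replicate block, the calls were 20, 20 and 19 between organs, 5 and 3 for iECs against fibroblasts in heart and lung, 6 and 17 for ECs against fibroblasts, 10 and 12 for iECs against ECs, and 2, 11 and 5 for the 3 differences between organs. The calls missed with the block were Hoxa3 for iECs against fibroblasts in lung (adjusted p = 0.0686), Hoxa4 for ECs against fibroblasts in lung (0.0579), Hoxb7 for iECs against ECs in lung (0.0578), and the differences between organs of Hoxa3 for iECs and fibroblasts (0.0509) and of Hoxb8 for iECs and ECs (0.0542). Depth limits the genes under about 1 CPM, where 1 count in the shallowest library is worth 0.0563 CPM.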
